A study of Bos taurus with 8 samples.

Results

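The insulin-like growth factor (IGF) family was followed here as 10 genes, of 24596 genes counted by RNA-Seq in bovine articular chondrocytes. Its members were the ligands *IGF1* and *IGF2*, the receptors *IGF1R* and *IGF2R*, and the binding proteins *IGFBP2* to *IGFBP7*. They were taken by gene name from the count table, and *IGFBP5* (ENSBTAG00000007062), which has a blank name there, was named through its Ensembl identifier. The cells were wild-type chondrocytes from the knee joints of calves aged 1 to 2 weeks, isolated either from the superficial zone (SZCs) or from the deep zone (DZCs) of the articular cartilage and cultured with serum for 3 days. Each zone gave 2 libraries. The question of this comparison is which genes set the lubricin-producing cells of the surface apart from those below. As a limit of the model, the zones were cut as slices by depth from the same cores and were not sorted by a marker. The middle zone was discarded, and each zone's slices of a joint were pooled. The sources used here do not say how many joints went into each library, or which libraries share a joint.

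IGF1 and IGF2 are secreted peptides that signal through IGF1R, a receptor tyrosine kinase on the cell surface. IGF2R, also known as the cation-independent mannose 6-phosphate receptor, takes up IGF2 and delivers it to lysosomes. The binding proteins hold the ligands in the extracellular space, where they can prolong or block their action, and proteases that cut them release the ligand. In cartilage, IGF1 is known for stimulating chondrocytes to make proteoglycan matrix.

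Library totals lay between 19918970 and 21890549 counts, and levels are given as CPM, a gene's counts relative to the library total after TMM normalization, a scaling that corrects for differences in library composition. On this scale 3 counts, the limit below which a level was not read, correspond to 0.129 to 0.187 CPM. Differences are log2 fold changes of SZCs over DZCs with their standard error (SE), and "exact test FDR" is the p-value of edgeR's exact test, adjusted over all tested genes by the method of Benjamini and Hochberg. The labels of the zones were checked with 5 superficial zone genes, of which 5 had an exact test FDR (false discovery rate) below 0.05 and were higher in SZCs, although 4 of the 5 were chosen by the study on these samples. *PRG4*, which encodes lubricin, was at 3166 and 2024 CPM in SZCs and at 15.3 and 61.5 CPM in DZCs. *COL2A1*, the defining collagen of cartilage, was detected in every library and took 6.31% to 24.5% of the counts, the most in DZC replicate 1. Of 9 chondrocyte markers, 0 were called higher in SZCs and 2 higher in DZCs (*MATN3* and *CHAD*), against 0.700% of all tested genes, and both DZC libraries lay above both SZC libraries for 6, against 20.5%. The part of this difference in the levels of the IGF genes was not tested. DZC replicate 1 stood apart from the other libraries. Its 6 cell cycle markers summed to 12.6 CPM, against 157 to 281 CPM elsewhere, and its scaling factor was 0.735, against 1.08 to 1.14.

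All 10 members had enough counts to be tested, with 12857 genes tested in all. At an exact test FDR of 0.05 there were 0 calls among the 10, whereas 377 of all tested genes (2.93%) were called, 2.23% with the higher level in SZCs and 0.700% in DZCs. At an unadjusted p-value below 0.05 there were 4 members, *IGF1*, *IGF2*, *IGFBP2* and *IGFBP5*, against 9.09% of all tested genes. Every one of these 4 had its higher level in SZCs. DESeq2 put 2 members, *IGFBP2* and *IGFBP5*, past an FDR of 0.05, against 3.09% of all tested genes, and the quasi-likelihood test of edgeR called 0 members and 0 genes (0%), with 3 members at an unadjusted p-value below 0.05, against 8.76% of all tested genes. With a replicate block that test called 347 of the 12857 genes, among them 1 member, *IGFBP2* (FDR 0.00646). It put 6 members at an unadjusted p-value below 0.05, against 12.8% of all tested genes. The labels do not say whether same-numbered libraries share a joint. The exact test with another dispersion estimate, common then gene-wise, called *IGF1*, *IGFBP2* and *IGFBP5*, 3 members against 3.03% of all tested genes. Both SZC libraries lay above both DZC libraries for 5 members, against 21.0% of all tested genes, and the reverse held for 1 member, against 20.5%, so that the zones did not overlap for 6 members, against 41.5% of all tested genes. The median log2 fold change of the 10 members, SZCs over DZCs, was 1.15, and that of all tested genes was -0.04.

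**Figure D1:**
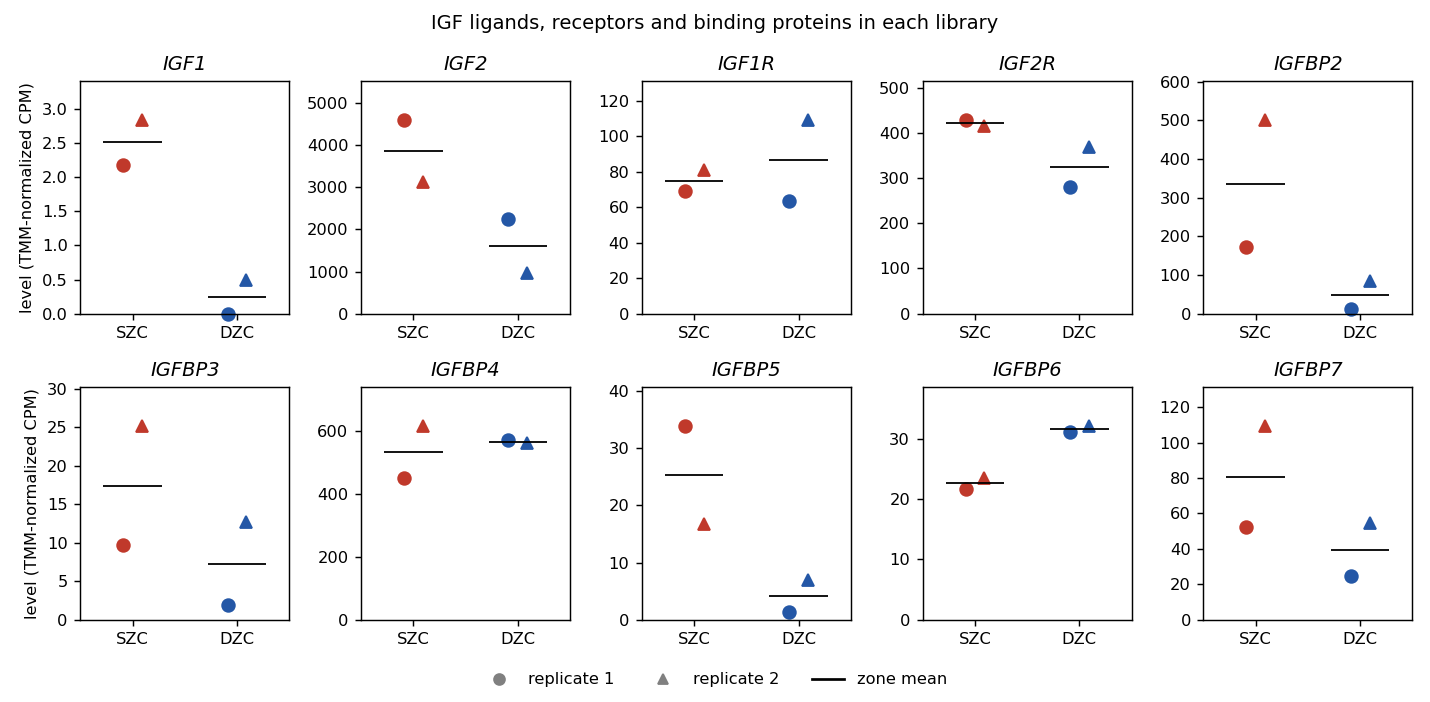
Level of each member (vertical axis, TMM-normalized CPM, each panel starting at 0) in the libraries of SZCs and DZCs. Circles are replicate 1, triangles replicate 2 and lines the zone mean of 2 libraries. *IGF1*, *IGF2*, *IGF2R*, *IGFBP2* and *IGFBP5* have both SZC points above both DZC points, and only *IGFBP6* has the reverse.

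*IGF2* (ENSBTAG00000013066), the fetal growth factor that is expressed from the paternal copy in most tissues, was the more heavily counted ligand. It was at 4602 and 3137 CPM in the SZC libraries and at 2258 and 964 CPM in the DZC libraries. The zones did not overlap, but the DZC libraries differed from each other about as much as the zones did. The mean of *IGF2* was 3869 ± 1036 CPM in SZCs (SD, n = 2) and 1611 ± 915 CPM in DZCs (SD, n = 2). This was a difference of 1.26 on the log2 scale (SE 0.54, 95% interval 0.20 to 2.33), with an exact test FDR of 0.351. Its reads made up 0.509% of all counts in SZC replicate 1 (95% Wilson interval 0.505% to 0.512%) and 0.104% in DZC replicate 2 (0.103% to 0.106%), the highest and the lowest of the 4 libraries. Counting error alone enters such intervals, and amplification copies of one molecule are not told apart. *IGF2* was 12th and 25th among all genes by counts in the SZC libraries and 41st and 85th in the DZC libraries. *INS*, the insulin gene that lies next to *IGF2*, had 0 counts in 3 libraries and 1 in the fourth. When the libraries were scaled by their totals alone, *IGF2* differed by 1.68 on the log2 scale with an exact test FDR of 0.0214, as the 1 member called, against 2.58% of all tested genes. The median of all genes was itself higher by 0.30 in that comparison. In bulk libraries such as these, fewer cells of a type and less RNA per cell cannot be told apart.

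*IGF1* (ENSBTAG00000011082), the growth hormone-dependent ligand, was the member with the fewest counts. It had 48 and 66 counts in the SZC libraries and 0 and 11 counts in the DZC libraries, or 2.18, 2.84, 0 and 0.493 CPM. The 0 counts of DZC replicate 1 allow a level of up to 0.187 CPM, which is below both SZC levels. *IGF1* differed by 3.25 on the log2 scale (SE 1.11, 95% interval 1.07 to 5.43, exact test FDR 0.136), the largest difference of the family and also the one with the widest interval. Mean levels were 2.51 ± 0.469 CPM in SZCs (SD, n = 2) and 0.247 ± 0.349 CPM in DZCs (SD, n = 2).

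Differences between the zones were smaller for the receptors. *IGF1R* (ENSBTAG00000021527), which transmits the signal of both ligands, was at 68.9 and 80.7 CPM in SZCs and at 63.7 and 109 CPM in DZCs. The SZC values fell within the span of the DZC values. On the log2 scale *IGF1R* differed by -0.21 (SE 0.41, exact test FDR 1), and the 95% interval, -1.01 to 0.59, leaves room for a difference in either direction. Its sign turned with scaling by library totals, to 0.025, and without DZC replicate 2, to 0.25. *IGF2R* (ENSBTAG00000002402), which clears IGF2, was at 429 and 416 CPM in SZCs and at 279 and 368 CPM in DZCs. Both SZC values were the higher ones, with 422 ± 9.2 CPM (SD, n = 2) against 324 ± 63.1 CPM (SD, n = 2). The difference of *IGF2R* was 0.38 on the log2 scale (SE 0.37, 95% interval -0.35 to 1.11, exact test FDR 0.958).

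Among the binding proteins, *IGFBP2* and *IGFBP5* had the larger differences. *IGFBP2* (ENSBTAG00000005596), which binds both ligands with a preference for IGF2, was at 171 and 501 CPM in the SZC libraries and at 12.9 and 84.2 CPM in the DZC libraries. The lower SZC value was above the higher DZC value, while the libraries of a zone differed by 2.93-fold in SZCs and by 6.54-fold in DZCs. The mean of *IGFBP2* was 336 ± 233 CPM in SZCs (SD, n = 2) and 48.5 ± 50.4 CPM in DZCs (SD, n = 2), a fold difference of 6.93 (95% interval 2.02 to 23.7). On the log2 scale this was 2.79 (SE 0.91), with an exact test FDR of 0.119 and a DESeq2 FDR of 0.0157.

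*IGFBP5*, a binding protein that attaches to extracellular matrix and bone mineral, was at 33.9 and 16.8 CPM in SZCs and at 1.37 and 7.04 CPM in DZCs. Its zones did not overlap either. The raw counts were 746 and 390 in SZCs and 22 and 157 in DZCs. *IGFBP5* differed by 2.58 on the log2 scale (SE 0.79), or 6.0-fold (95% interval 2.04 to 17.6). It had the smallest exact test FDR of the family, 0.0734, and a DESeq2 FDR of 0.0198. *IGFBP2* and *IGFBP5* are neighbouring genes in the RefSeq annotation of assembly ARS-UCD2.0.

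*IGFBP7* (ENSBTAG00000019368), a secreted relative with low affinity for the ligands, was at 52.3 and 109 CPM in SZCs and at 24.6 and 54.4 CPM in DZCs. SZC replicate 1 lay just under DZC replicate 2, so the zones overlapped. Between same-numbered libraries the SZC value was the higher one each time, but the labels do not say whether these share a joint. The zones differed by 1.03 on the log2 scale (SE 0.56, 95% interval -0.06 to 2.13, exact test FDR 0.638). *IGFBP3* (ENSBTAG00000003994), the main carrier of IGFs in blood, was at 9.68 and 25.2 CPM in SZCs and at 1.87 and 12.6 CPM in DZCs. The zones overlapped again, with the SZC value the higher one within each replicate number. *IGFBP3* differed by 1.26 on the log2 scale (SE 0.92, 95% interval -0.54 to 3.06, exact test FDR 0.861).

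The remaining binding proteins differed little between the zones. *IGFBP4* (ENSBTAG00000008611), an inhibitor of IGF action that is a substrate of the protease PAPPA, was at 450 and 615 CPM in SZCs and at 570 and 559 CPM in DZCs. Both DZC values fell between the SZC values. The 95% interval of the fold was 0.560 to 1.58, and the log2 fold change of -0.09 (exact test FDR 1) turned to 0.22 with scaling by library totals and to 0.12 without SZC replicate 1. *IGFBP6* (ENSBTAG00000021467), which prefers IGF2 as its ligand, was at 21.7 and 23.5 CPM in SZCs and at 31.0 and 32.1 CPM in DZCs. Its libraries of a zone lay close together, and it was the only member whose DZC values were both above its SZC values. *IGFBP6* differed by -0.48 on the log2 scale (SE 0.34, 95% interval -1.15 to 0.19, exact test FDR 0.842).

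**Figure D2:**
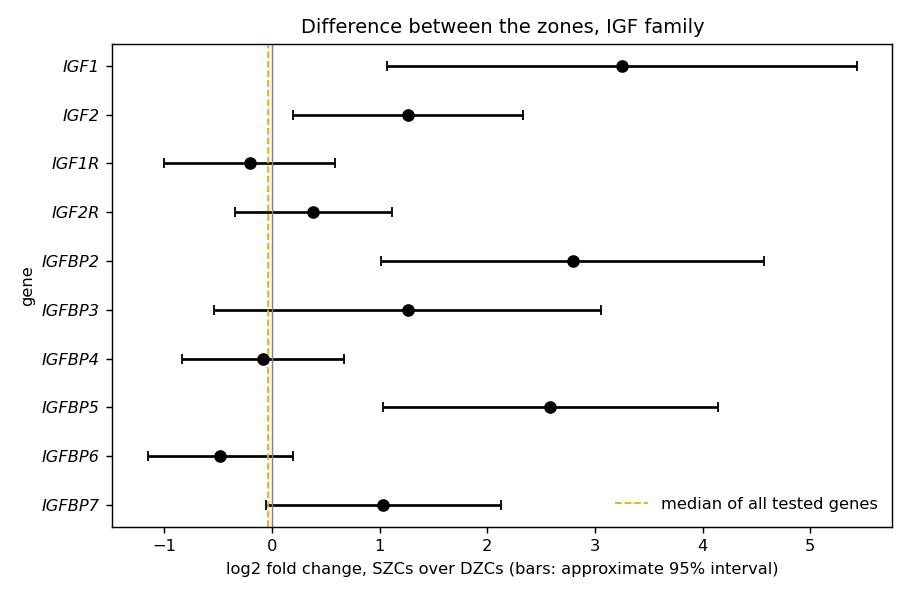
Log2 fold change of each member, SZCs over DZCs, by edgeR with TMM normalization (points) with approximate 95% intervals from the standard error (bars). The dashed line is the median of all 12857 tested genes, -0.04. The intervals of *IGF1*, *IGF2*, *IGFBP2* and *IGFBP5* lie above 0, while those of the other 6 members include 0.

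The counts of the 6 binding proteins were also compared within each library, which needs no scaling between libraries. No transcript lengths entered this comparison, so a share is compared for the same gene between libraries and not between genes. *IGFBP4* took 60.9% (95% Wilson interval 60.1% to 61.6%) and 47.6% (47.0% to 48.2%) of the 6 genes' counts in SZCs. Its share was 88.8% (88.2% to 89.4%) and 74.6% (74.0% to 75.3%) in DZCs, above both SZC libraries. *IGFBP2* took 23.2% (22.6% to 23.9%) and 38.8% (38.3% to 39.4%) in SZCs, against 2.01% (1.75% to 2.30%) and 11.2% (10.8% to 11.7%) in DZCs. The share of *IGFBP5* was 2.95% ± 2.32 (SD, n = 2) in SZCs and 0.576% ± 0.513 (SD, n = 2) in DZCs, and that of *IGFBP6* was 2.38% ± 0.790 (SD, n = 2) and 4.56% ± 0.394 (SD, n = 2). For these 4 of the 6 genes the zones did not overlap, and for *IGFBP3* and *IGFBP7* they did. No background was computed for shares. In CPM, another measure, the zones did not overlap for 41.5% of all tested genes. With 2 libraries against 2, the smallest p-value that an exact two-sided permutation test can give is 0.333, so these shares were not tested. Shares of one total are tied to each other, so a lower share of *IGFBP2* goes with a higher share of *IGFBP4* whatever the CPM of *IGFBP4*.

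**Figure D3:**
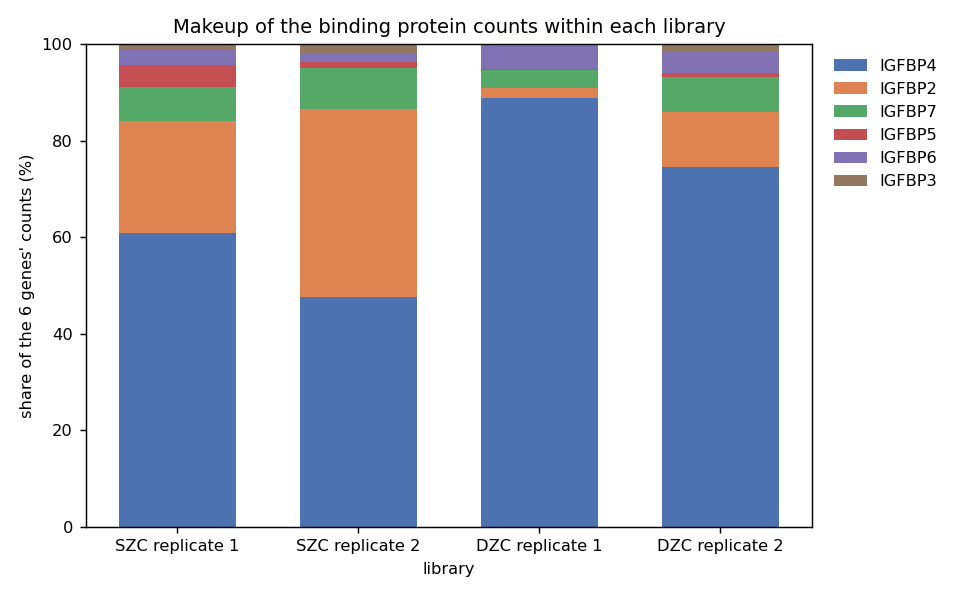
Share (vertical axis, %) of each binding protein gene in the summed counts of the 6 genes, for each library (bars). *IGFBP4* takes 47.6% to 60.9% in the SZC libraries and 74.6% to 88.8% in the DZC libraries, and *IGFBP2* takes 23.2% to 38.8% and 2.01% to 11.2%.

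The libraries of one zone differed for several members by more than is usual among genes. The DZC libraries differed by over 4-fold for *IGFBP2*, *IGFBP3* and *IGFBP5*, that is for 3 of the 9 members counted in every library, against 8.27% of all tested genes. *IGFBP3* was 6.77-fold higher in DZC replicate 2 than in DZC replicate 1, and *IGFBP5* was 5.14-fold higher. The SZC libraries differed by over 2-fold for 4 members, *IGFBP2*, *IGFBP3*, *IGFBP5* and *IGFBP7*, against 7.58% of all tested genes. Of the 9 members, 5 were higher in replicate 2 of both zones, *IGFBP2*, *IGFBP3* and *IGFBP7* by over 2-fold and *IGF1R* and *IGFBP6* by less, whereas *IGF2* was lower in replicate 2 of both. *IGFBP5* was higher in replicate 1 of the SZCs and in replicate 2 of the DZCs.

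**Figure D4:**
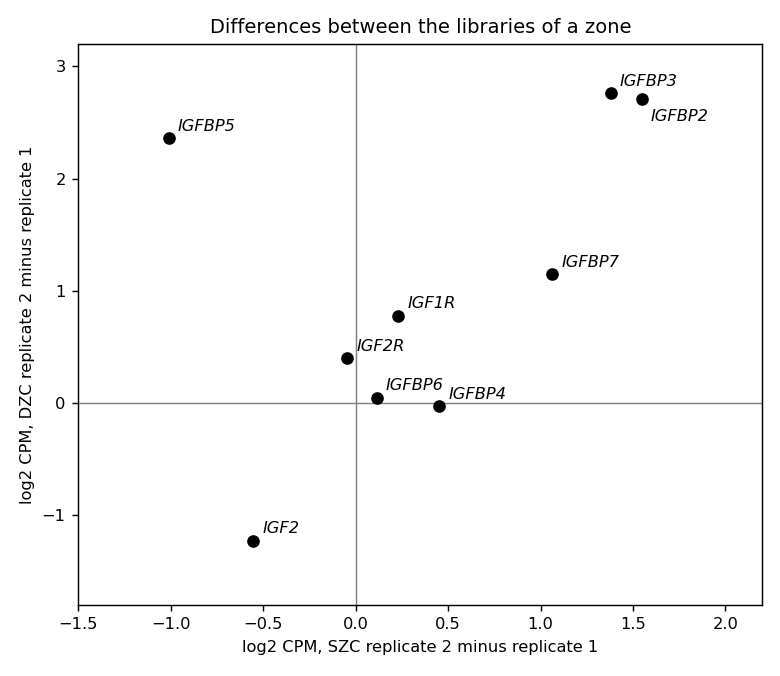
Difference in log2 CPM between replicate 2 and replicate 1 in SZCs (horizontal axis) and in DZCs (vertical axis) for the 9 members with counts in every library, 1 point per gene. *IGFBP2*, *IGFBP3* and *IGFBP7* lie to the upper right, *IGF1R* and *IGFBP6* on that side closer to the origin, *IGF2* to the lower left, and *IGFBP5* to the upper left at -1.01 and 2.36.

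Markers of other cells differed between these libraries too. All 6 genes of a fibroblast list were counted in every library, with 0 of the 6 called, against 2.93% of all tested genes. They summed to 16983 and 25169 CPM in SZCs and to 4414 and 14069 CPM in DZCs. Most of that sum came from the collagens *COL1A1*, *COL1A2* and *COL3A1*. *PDPN* of the same list was at 492 and 453 CPM in SZCs and at 1103 and 762 CPM in DZCs, the reverse order of the zones. *COL1A1* and *THY1* overlapped between the zones. From lowest to highest, that sum ran from DZC replicate 1 over DZC replicate 2 and SZC replicate 1 to SZC replicate 2. *IGF1* and *IGFBP2* had the same order, and so had the protease gene *PAPPA*, described further on. The other members did not have it, nor did *COL1A1*, *COL3A1*, *THY1* and *PDPN* of the list itself. How many of all tested genes have this order was not counted. A list of 10 hypertrophic and bone-forming genes summed to 113 and 110 CPM in SZCs and to 35.2 and 274 CPM in DZCs, of which *SPP1* alone gave 201 of the 274 CPM. The list's genes did not move together in the DZC libraries. *COL10A1* and *IBSP* were at 0 counts in DZC replicate 1, and *MMP13* at 0 in every library but DZC replicate 2. Of the list, 5 genes were tested and 1 was called, *IHH* (exact test FDR 0.0160), against 2.93% of all tested genes. *IHH* had 194 counts in DZC replicate 1 against 48 in DZC replicate 2. Endothelial genes summed to at most 11.2 CPM, with *CDH5* at 0 counts in DZC replicate 1, and blood and macrophage genes to at most 27.1 CPM, with *HBB* at 0 counts throughout. The part of these cells in the levels of the members was not tested.

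The calls depended on which libraries were used. With a library left out, the lone library of its zone is assumed to vary like the other zone's pair. Without DZC replicate 2, edgeR's exact test called 5 members, against 20.7% of all tested genes, namely *IGF1*, *IGFBP2*, *IGFBP3*, *IGFBP5* and *IGFBP7*. Their log2 fold changes were then 8.69, 4.72, 3.24, 4.22 and 1.74, and that of *IGF1*, set against 0 counts, is no estimate of size. Without DZC replicate 1 the test called 3 members, against 6.67% of all tested genes, namely *IGF2* with 2.01, *IGFBP2* with 2.00 and *IGFBP5* with 1.85. Without SZC replicate 1 it called *IGFBP2* (log2 fold change 3.37), against 0.436% of all tested genes, and without SZC replicate 2 it called 0 members, against 1.13%. At an unadjusted p-value below 0.05, 6 members were found without DZC replicate 2, against 32.9% of all tested genes. With SZC replicate 1, SZC replicate 2 or DZC replicate 1 left out there were 4 each time, against 3.55%, 5.08% and 14.9%. Some differences were smaller. Without DZC replicate 1 the log2 fold changes of *IGF1*, *IGFBP3* and *IGFBP7* were 2.34, 0.47 and 0.58. Without SZC replicate 2 those of *IGFBP2*, *IGFBP3* and *IGFBP7* were 1.82, 0.42 and 0.41, and that of *IGF2* was 0.95 without SZC replicate 1 and 0.79 without DZC replicate 2. *IGF1*, *IGF2*, *IGF2R*, *IGFBP2*, *IGFBP3*, *IGFBP5* and *IGFBP7* had a higher level in SZCs under all 4 of these omissions.

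The other genes of the pathway were taken from 4 lists, with 57 genes tested, of which 1 had an exact test FDR below 0.05, against 2.93% of all tested genes. It was *PAPPA* (ENSBTAG00000004010), the metalloprotease that cuts IGFBP4 and IGFBP5 and so frees IGF. *PAPPA* was at 32.8 and 55.2 CPM in SZCs and at 10.5 and 17.5 CPM in DZCs, and both SZC values were above both DZC values. *PAPPA* differed by 1.65 on the log2 scale (SE 0.46, 95% interval 0.75 to 2.55, exact test FDR 0.0211), a 3.14-fold higher level in SZCs. DESeq2 gave *PAPPA* an FDR of 0.0179, and the call was lost in the quasi-likelihood test (FDR 0.302, log2 fold change 1.65), with scaling by library totals (0.0786, 1.89), without SZC replicate 1 (0.213, 1.97) and without SZC replicate 2 (1, 1.23).

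In that list of 10 tested genes for IGF release and cleavage of binding proteins, the other 9 did not pass, and the list's median log2 fold change was 0.34. *STC1* and *STC2* encode stanniocalcins, glycoproteins that inhibit PAPPA, and *STC2* was singled out after its values were seen. *STC1* was at 4.54 and 4.14 CPM in SZCs and at 0.684 and 1.34 CPM in DZCs, a log2 difference of 2.07 (SE 0.65, exact test FDR 0.0658). *STC2* was at 14.0 and 15.5 CPM in SZCs and at 22.9 and 28.8 CPM in DZCs, a log2 difference of -0.81 (SE 0.37, exact test FDR 0.422). The zones did not overlap for either stanniocalcin, which held for 41.5% of all tested genes. The higher zone was SZCs for *STC1* and DZCs for *STC2*. *ADAM28*, a metalloprotease that can cleave IGFBP3, had 16 and 14 counts in SZCs and 2 and 1 in DZCs, with an exact test FDR of 0.156. In this list *PAPPA*, *STC1*, *STC2* and *ADAM28* had an unadjusted p-value below 0.05 in the exact test, against 9.09% of all tested genes.

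The next list held genes that carry the receptor's signal inside the cell. Of 29 tested genes from the receptor substrates to the kinases AKT and MTOR, 0 had an exact test FDR below 0.05, against 2.93% of all tested genes, and 0 passed in DESeq2, against 3.09%, so that under 1 call would match the background. Both SZC libraries lay above both DZC libraries for 5 genes (21.0% of all tested genes) and the reverse held for 5 (20.5%), and the median log2 fold change was 0.06. Of the 29, *GRB14* alone had an unadjusted p-value below 0.05, against 9.09% of all tested genes. *GRB14*, an adaptor that inhibits insulin receptor signalling, had 11 and 15 counts in SZCs and 1 and 3 in DZCs, with an exact test FDR of 0.259. *GSK3B*, a kinase that AKT inactivates, was at 13.9 and 11.1 CPM in SZCs and at 15.8 and 27.6 CPM in DZCs (exact test FDR 0.684).

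Of 9 tested genes for the supply of IGF, 0 had an FDR below 0.05 by the exact test (2.93% of all tested genes) or by DESeq2 (3.09%), and 2 had an unadjusted p-value below 0.05 in the exact test (9.09%). They were *GHR* and *JAK2*, the growth hormone receptor and the kinase that it activates. *GHR* was at 36.3 and 21.1 CPM in SZCs and at 10.9 and 13.1 CPM in DZCs, a log2 difference of 1.26 (SE 0.43, exact test FDR 0.115). *JAK2* was at 95 and 102 CPM in SZCs and at 45.4 and 63.1 CPM in DZCs, a log2 difference of 0.86 (SE 0.36, exact test FDR 0.286). For both genes the SZC values lay above the DZC values. The list's median log2 fold change was -0.03. Differences of pathway genes also depended on the DZC libraries. Without DZC replicate 2, the log2 fold changes of *GHR*, *JAK2* and *STC1* were 1.41, 1.14 and 2.67. Those of *GSK3B* and *STC2* were -1.14 and -0.96 without DZC replicate 1. Other genes of the lists moved as well. In the receptor list *PIK3R1*, *FOXO3* and *EIF4EBP1* differed by 1.46, 1.28 and -1.10 without DZC replicate 2. *ESM1*, a relative with the IGF-binding domain, differed by 3.23 without DZC replicate 2 and by -2.63 without DZC replicate 1. *GHR* differed by 0.81 without SZC replicate 1.

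The last list held relatives that share the IGF-binding domain, of which 9 were tested and 0 had an exact test FDR below 0.05 (2.93% of all tested genes), with a median log2 fold change of 0.25. *CCN2*, a matrix-associated growth regulator also called CTGF, was at 951 and 1247 CPM in SZCs and at 2016 and 5162 CPM in DZCs. *CCN2* differed by -1.71 on the log2 scale (SE 0.55, exact test FDR 0.0847), and in DESeq2 it was the 1 gene of the list that passed, with an FDR of 0.0229, against 3.09% of all tested genes. With common then gene-wise dispersion its FDR was 0.0305, and without DZC replicate 1 *CCN2* differed by -2.23 (exact test FDR 2.93e-08). The quasi-likelihood test gave *CCN2* an FDR of 0.488, and without DZC replicate 2 its difference was -0.86 (exact test FDR 0.0475). *KAZALD1* was at 2.00 and 1.77 CPM in SZCs and at 0.498 and 0.359 CPM in DZCs (exact test FDR 0.111). These 2 were the genes of the list with an unadjusted p-value below 0.05, against 9.09% of all tested genes. *IGFBP1*, the liver-type binding protein, was not tested and had at most 4 counts in a library.

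**Figure D5:**
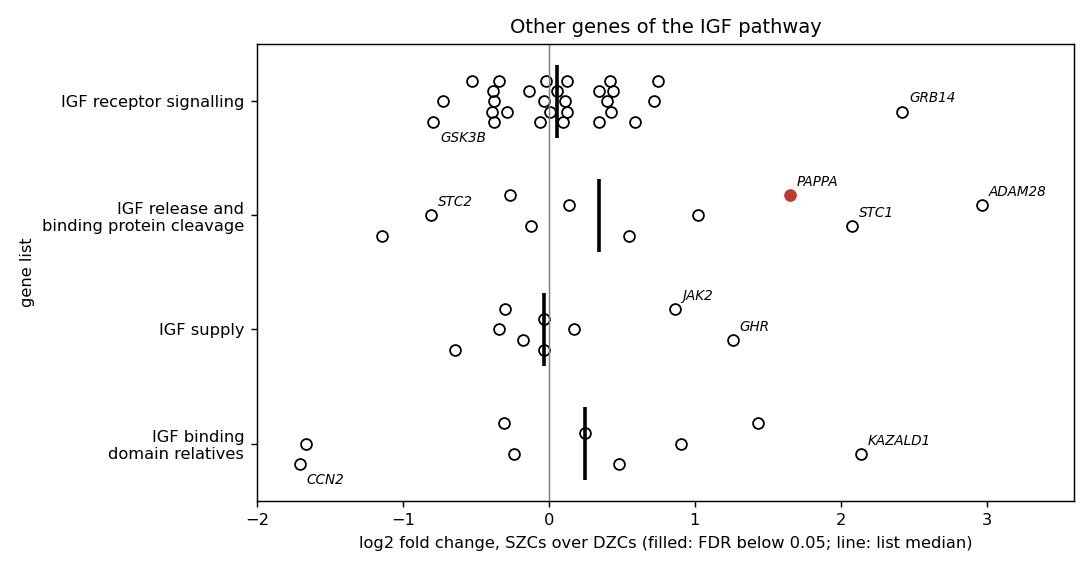
Log2 fold change, SZCs over DZCs (horizontal axis), of the tested genes in 4 lists of IGF pathway genes (rows). Each circle is a gene, filled where its exact test FDR was below 0.05, and the thick lines are list medians from -0.03 to 0.34. Only *PAPPA*, at 1.65, is filled.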

How the data were processed

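Chondrocyte RNA from 2 libraries per zone was sequenced from a single end with a kit for very small RNA amounts. The authors aligned the reads with STAR 2.5.2b to Ensembl build UMD 3.1 (version 88) and deposited counts per gene, unstranded and not normalized. Their second table holds their own fold changes and FDR values, and only its gene names were used. The study's methods call the samples of a zone biological duplicates, but the sources used here tie no library to an animal, so p-values measure the spread between these libraries.

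The analysis used edgeR 4.0.16 (R 4.3.3) on the deposited counts: default filter, TMM, default dispersion estimates and the exact test with Benjamini–Hochberg adjustment over all 12857 tested genes, as the study's methods state for the scaling and test. Standard errors were computed from the Fisher information of edgeR's count model at each gene's dispersion, and 95% intervals are log2 fold change ± 1.96 standard errors. The scripts were tested on simulated data.

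Alternatives were the quasi-likelihood test, DESeq2 1.42.0, other filters, scalings and dispersions, a replicate block, and leaving out each library. Named genes are all 10 members, called pathway genes, the 2 largest other differences per list and the genes with the most similar profiles. The members, lists and tests were chosen with earlier results of these data known.

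All 10 members matched a RefSeq symbol (assembly ARS-UCD2.0), used for names and neighbours only. There *IGF1* overlaps a long noncoding RNA, *IGF2* overlaps *MIR483*, *IGF1R* overlaps *PGPEP1L*, *IGF2R* overlaps *AIRN* and *IGFBP7* overlaps *POLR2B*, whose reads cannot be separated without strand. The ATAC-Seq samples and sequences were not analysed here.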

Additional observations from a re-analysis of the deposited data

How the results depend on the processing

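The quasi-likelihood test of edgeR called 0 genes, 0 higher in SZCs, 0 higher in DZCs and 0 pathway genes. DESeq2 called 2 members and 2 pathway genes, against 3.09% of all tested genes. Common then gene-wise dispersion called 3 members (*IGF1*, *IGFBP2* and *IGFBP5*) and 2 pathway genes, against 3.03%. Scaling by library totals called 44 genes higher in DZCs, 1 member (*IGF2*) and 0 pathway genes, against 2.58% of all tested genes called in either direction. Of the calls made with that scaling, 86.7% were higher in SZCs (76.1% with TMM), and the median of all genes shifted by 0.30. Relative to that median, the log2 fold change of *IGF2* was 1.42, against 1.30 with TMM. The deviations of same-numbered libraries had a correlation of 0.42 across genes, but nothing in the labels ties the numbers to a joint. With the replicate block there were 347 calls by the quasi-likelihood test among 12857 tested genes, 277 of them shared with the 377. The 347 included 1 member, *IGFBP2* (log2 fold change 3.14, FDR 0.00646). Among the genes of similar profile the block lost the calls of *NID2* (FDR 0.0811) and *COL15A1* (0.0618). It gained those of *DKK2* (0.0225), *COL5A3* (0.0197) and *MDGA1* (0.0290). With each library left out, the genes called ranged from 58 to 2725, those higher in SZCs from 52 to 1607, those higher in DZCs from 6 to 1118, members from 0 to 5 and pathway genes from 0 to 16. The largest of these counts all came without DZC replicate 2, the setting with the largest share of all genes called. Signs turned for *IGF1R* (0.025 by library totals, -0.54 to 0.25 with a library left out, the latter without DZC replicate 2) and *IGFBP4* (0.22 by library totals, -0.33 to 0.12 with a library left out, the latter without SZC replicate 1). The cause was not tested. Over the 8 alternatives with all libraries, the FDR ranged from 0.0417 to 0.513 for *IGF1*, 0.0214 to 0.634 for *IGF2*, 0.00646 to 0.501 for *IGFBP2*, 0.0101 to 0.422 for *IGFBP5* and 0.0126 to 0.302 for *PAPPA*. *IGF1* had at most 66 counts, and whether depth limited its call was not tested.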

Other observations

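Genes outside the family were ranked by how close their levels over the 4 libraries were to those of the 3 members with the largest differences, as the Euclidean distance of log2(CPM + 1) values centred on each gene's mean, among 11802 named genes. With 4 libraries many genes lie close to any profile, so the ranking is a description without a test. The added 1 compresses differences at low levels such as those of *IGF1*, so its nearest genes depend on that choice, and *NID2* differed by 1.60 between the zones on the log2 scale where *IGF1* differed by 3.25. *NID2*, which encodes a basement membrane protein, was nearest to *IGF1* (distance 0.113), with 998 and 1169 CPM in SZCs and 294 and 421 CPM in DZCs, and had an FDR of 0.00587 by edgeR's exact test. *HHIP*, a secreted antagonist of hedgehog ligands (0.121), and *F2R*, a thrombin receptor (0.144), followed. *IGFBP2* was nearest to *DKK2*, a Wnt antagonist (0.502), the collagen gene *COL5A3* (0.567) and *MDGA1* (0.672). *DKK2* was at 14.6 and 48.3 CPM in SZCs and at 0.560 and 11.2 CPM in DZCs, with an FDR of 0.605 by edgeR's exact test. *IGFBP5* was nearest to *PLXDC1* (0.317), *OLFML2B* (0.426) and the collagen gene *COL15A1* (0.439). These 9 genes were picked on the same libraries for profiles like those of members that differ between the zones. Calls among them follow in part from that choice, so the 2.93% of all tested genes is no background for them. *NID2* and *COL15A1* passed an exact test FDR of 0.05, the latter with 890 and 692 CPM in SZCs, 77.1 and 271 CPM in DZCs and an FDR of 0.0379 by edgeR's exact test. Both calls were lost in the quasi-likelihood test (FDR 0.280 for *NID2* and 0.397 for *COL15A1*), without SZC replicate 1 (0.514 and 0.499) and without SZC replicate 2 (0.605 and 0.113). The log2 fold changes were 1.60 and 2.18 in the exact test with all libraries, 1.71 and 1.99 without SZC replicate 1 and 1.48 and 2.36 without SZC replicate 2. The call of *COL15A1* was also lost with scaling by library totals (0.143, log2 fold change 2.34). DESeq2 in addition called *COL5A3* (FDR 0.0379), *PLXDC1* (0.0449) and *OLFML2B* (0.0142), which also passed with common then gene-wise dispersion.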
